A study of Mus musculus with 38 samples.

Results

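Gene expression was compared between kidney tumours of VIM mice and normal kidney. VIM mice combine loss of Vhl, a doxycycline (Dox)-inducible MYC transgene in renal tubule cells and loss of the Ink4a/Arf locus. The 8 libraries were chosen by their titles alone, without any measured value: the tumours of mice 3237, 3233 and 3130 and the kidneys B61, B62, KT1, KT2 and KT3, out of 38 libraries in the series. The labels give the 3 tumours the genotype Vhl-/-; MYC +; Ink-/-/Arf-/- and describe them as maintained on dox, and give the 5 kidneys as Wild Type on vehicle. No age or sex is stated, and the source of all 8 libraries is kidney. In this model the Ksp-cadherin promoter, active in tubule epithelium, drives both the activator of Tet-O-Myc and the tamoxifen-inducible Cre that deletes Vhl, whereas the Ink4a/Arf knockout is carried in the germline. Tumour state, genotype and Dox change together between the groups, so their parts in a difference cannot be told apart. The question was which genes separate these tumours from the organ in which they grew.

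As background, VHL is the substrate receptor of the ubiquitin ligase that marks the alpha subunits of the hypoxia-inducible factors (HIF) for destruction when oxygen is present. Without it HIF remains and drives genes of glucose uptake, glycolysis, angiogenesis and pH control, the programme known from clear cell renal cell carcinoma. MYC binds E-box sequences and promotes ribosome production, nucleotide synthesis and the cell cycle, and the Ink4a/Arf locus encodes p16INK4A, which blocks CDK4 and CDK6, and p19ARF, which stabilises p53. The normal kidney is dominated by tubule cells, in which the proximal tubule reabsorbs glucose, amino acids and phosphate, burns fatty acids and makes glucose.

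All values are given in the authors' units, in which the upper quartile of a library is 1000, and always in the order 3237, 3233 and 3130 for the tumours and B61, B62, KT1, KT2 and KT3 for the kidneys. The tumour libraries held an estimated 8220000 to 11550000 reads and the kidneys 11830000 to 15550000 reads, and 3 reads, taken as the floor, were worth 3.76 to 5.65 units in the tumours and 3.80 to 5.19 in the kidneys. Kidney KT3 stood apart from the other kidneys, with Xist at 20506 units and Eif2s3y at 39.2, against 0 to 1204 and 1069 to 1323 in the other 4. The androgen-dependent kidney genes summed to 262125 units in KT3, against 1044682 to 1478998 in the other 4. Kidney KT2 carried Xist at 1204 and Slc7a12 at 496 units, 5.87% and 5.59% of the values in KT3. The labels give no sex, and whether KT3 came from a female and whether KT2 holds material of KT3 was not tested, so some counts are also given without both kidneys. In the tumours the 5 Y-linked and X-inactivation genes, Xist among them, summed to 7496, 4596 and 14815 units, below the Xist value of KT3 alone. The sex of the tumours was not tested either. Tumour 3233 kept more of the distal nephron genes than the other tumours, and the adipocyte genes Cfd, Adipoq and Lep were above the floor in tumour 3130 alone, at 899, 82.6 and 44.1 units. Transcript length also moved with the library: the median gene under 1 kb lay 0.71 above its mean of the 8 libraries on the log2 scale in tumour 3130, 0.32 above in 3237 and 0.32 below in 3233, while the kidneys lay between −0.36 and 0.22. The part of these features in the results was not tested beyond the values given without the library concerned. Because the labels do not say that the kidneys came from separate animals, p-values measure only the spread between these samples. Among the named genes with a position, 42 of 210 share exon bases with another annotated gene, and whether reads were counted by strand is not given in the sources used here.

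Of 16068 genes tested, 6529 passed, meaning an adjusted p under 0.05 in limma and a log2 difference beyond 1 in either direction. They were 40.6% of the genes tested, 3096 (19.3%) higher and 3433 (21.4%) lower in the tumours, and the median over all genes tested was −0.01 on the log2 scale. These shares are the background for every count of list members that passed. The groups did not overlap for 49.9% of genes, 24.7% with the tumours higher and 25.2% with the tumours lower, which is the background for every statement on overlap. Values after ± are standard errors of the log2 difference, which was taken after adding 1 unit to each value. Where all libraries of a group lie at or below the floor, that difference depends on the added unit and is left out here, except where this is stated beside it. In bulk tissue, fewer cells of a type and less RNA per cell cannot be told apart. Tubule, endothelial and T cell genes fell and genes of ribosome biogenesis, DNA replication, mitosis, glycolysis and macrophages rose, as the bar plot of list members that passed shows.

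**Figure D1:**
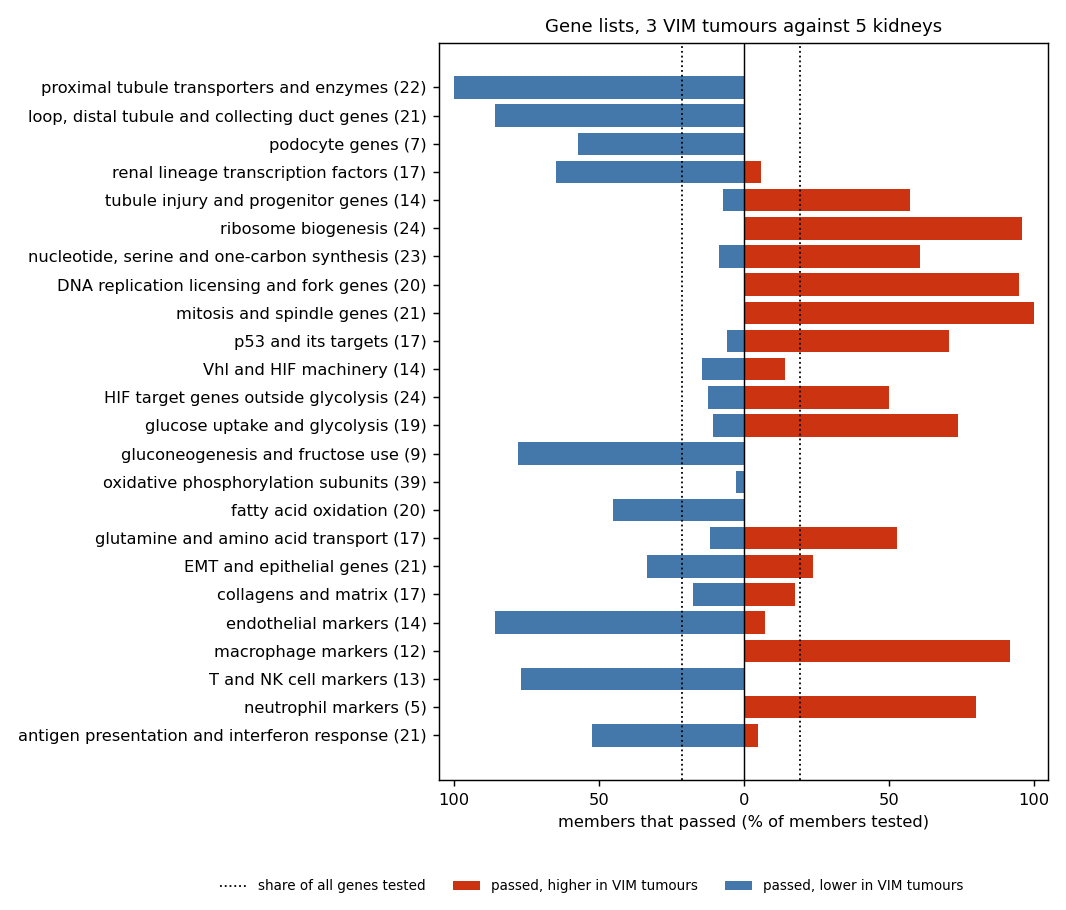
Percentage of the tested members of each gene list that passed, lower in VIM tumours to the left in blue and higher to the right in red, with the number tested in brackets. Dotted lines mark the 21.4% of all genes tested that were lower and the 19.3% that were higher. All 22 proximal tubule genes were lower and all 21 mitosis genes were higher, while 1 of 39 oxidative phosphorylation genes passed.

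The engineered genes are given first. Vhl (chr6:113573953-113581627 in mm9, plus strand) was read at 226, 219 and 312 units in the tumours and 772, 744, 638, 661 and 612 in the kidneys. The tumours lay below every kidney (log2 difference −1.45 ± 0.18, adjusted p = 0.000121), and the exact two-sided permutation test gave p = 0.0357, the smallest that 3 against 5 libraries allow. Myc (chr15:61816946-61821929, plus strand), whose values may or may not include reads of the transgene, measured 397, 476 and 339.6 units in the tumours and 62.3, 64.3, 40.7, 48.2 and 119 in the kidneys, again without overlap (log2 difference 2.67 ± 0.35, adjusted p = 0.000187, exact permutation p = 0.0357). Cdkn2a, the gene of the Ink4a/Arf locus (chr4:88920377-88940557, minus strand), was read at 33.9, 30.1 and 95.5 units in the tumours and 1.73, 1.34, 0, 0 and 3.80 in the kidneys. It was higher in the tumours in spite of the knockout (passed, adjusted p = 0.000305, exact permutation p = 0.0357), but every kidney lay at or below the floor and is no check of the deletion. In VM tumours, which have an intact locus, it stood at 4298, 4347 and 3392 units, and the VIM tumours were lower (log2 difference −6.40 ± 0.44, adjusted p = 0.00240). Values per gene do not show which exons of Vhl or Cdkn2a the reads covered. The neighbouring Cdkn2b, which encodes the CDK inhibitor p15INK4B, rose from near the floor, at 684, 342 and 589 units in the tumours and 3.46, 4.02, 3.26, 1.46 and 6.33 in the kidneys (log2 difference 6.87 ± 0.44, adjusted p = 3.82e-06).

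The tubule programme fell. All 22 of the proximal tubule transporters and enzymes passed as lower, with a median log2 difference of −6.30, and 18 of 21 genes of the loop of Henle, distal tubule and collecting duct passed as lower, with a median of −6.81. None of either list passed as higher. Slc22a12, the urate transporter URAT1 (chr19:6535845-6543019, minus strand), stood at 13.2, 338 and 0 units in the tumours and 45898, 48072, 51000.4, 48987 and 23402 in the kidneys (log2 difference −11.28 ± 1.42, adjusted p = 0.000143). Its exons overlap those of Nrxn2 on the opposite strand. Slc34a1, the sodium-phosphate cotransporter of the proximal tubule, was read at 441, 881 and 89.9 units in the tumours and 105882, 126599.7, 120476, 106061 and 86261 in the kidneys (log2 difference −8.36 ± 0.59, adjusted p = 6.00e-06), and every tumour lay far below the lowest kidney. Miox, which opens the inositol ring and is almost confined to this segment, measured 30.1, 560.2 and 5.51 units in the tumours and 37723, 40428, 25279, 30164 and 40944 in the kidneys (log2 difference −9.47 ± 1.10, adjusted p = 8.76e-05). The smallest proximal tubule differences were those of Slc7a9, at −1.45, and Slc3a1, at −1.61, the light and heavy chains of the cystine transporter. Without tumour 3233 the count of proximal tubule genes that passed was 21.

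Distal genes fell most in tumours 3237 and 3130. Umod, which encodes the uromodulin of the thick ascending limb, stood at 109, 3228 and 34.9 units in the tumours and 40327, 51458, 51876, 62219 and 91620.5 in the kidneys (log2 difference −7.94 ± 1.15, adjusted p = 0.000328). Slc12a3, the thiazide-sensitive cotransporter, was read at 9.42, 899.7 and 14.7 units in the tumours and 15223, 15599.7, 14073, 20488 and 25046 in the kidneys (log2 difference −8.39 ± 1.201, adjusted p = 0.000305). Calb1, a calcium-binding protein of the distal convoluted tubule, measured 0, 915 and 3.67 units in the tumours and 7749, 10684, 8845, 10873 and 13475 in the kidneys (log2 difference −9.29 ± 1.73, adjusted p = 0.00144). In each of these genes tumour 3233 held the highest tumour value, yet remained below every kidney. Summed over the list, the distal genes reached 1642, 10133 and 890.3 units in the tumours and 90111 to 197280.4 in the kidneys. Trpm6 and Atp6v0d2 were among the members that did not pass, with log2 differences of −0.30 and −0.58. Podocyte genes, which mark the filtering cells of the glomerulus, passed as lower in 4 of 7.

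Among 17 renal lineage transcription factors tested, 11 were lower and 1 was higher. Pax8, a nephron lineage factor used as a marker of renal epithelium and its tumours, was the one that rose, at 4154, 3756 and 1782 units in the tumours and 898, 1116, 1217, 1036 and 1147 in the kidneys (log2 difference 1.49 ± 0.26, adjusted p = 0.00102). Hnf4a, the factor that directs proximal tubule differentiation, stood at 3879, 4391 and 3908 units in the tumours and 14259.5, 16846, 17332, 16870.1 and 15099 in the kidneys (log2 difference −1.98 ± 0.15, adjusted p = 9.63e-06). Tfap2b and Esrrb, factors of the distal nephron, fell by 6.50 and 6.45 on the log2 scale, and in both only tumour 3233 held more than 6 units. Pax2, the partner of Pax8 in nephron development, was read at 1.88, 10.03 and 0 units in the tumours and 79.6, 72.3, 83.1, 96.4 and 151 in the kidneys (log2 difference −4.89 ± 0.68, adjusted p = 0.000258). The groups did not overlap in any of these factors, and the Pax genes differed in opposite directions. Sall1 and Ppargc1a did not pass. Cdh16, the Ksp-cadherin whose promoter drives the transgenes, measured 9814, 10851 and 6526 units in the tumours and 16888, 20501, 18226, 19428 and 23962 in the kidneys (log2 difference −1.15 ± 0.22, adjusted p = 0.00177). Its groups did not overlap, but the difference was −0.93 without tumour 3130 and so no longer passed.

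Androgen-dependent kidney genes fell in 6 of 7. Kap, the androgen-regulated kidney protein of the proximal tubule, stood at 904, 1516 and 193 units in the tumours and 1234949.8, 1117526, 813562, 849961 and 233226 in the kidneys (log2 difference −10.17 ± 0.73, adjusted p = 6.53e-06). Slco1a1, an organic anion transporter, was read at 1.88, 1.25 and 0 units in the tumours and 28955, 28134, 32011, 25124 and 1073 in the kidneys (passed, adjusted p = 1.13e-05). In both genes KT3 was the lowest kidney and still above every tumour, and with KT3 left out 6 of 7 again passed as lower. Slc7a12, which is higher in female kidney, measured 11.3, 100.3 and 1.84 units in the tumours and 69.2, 21.4, 22.8, 496 and 8887 in the kidneys, with overlapping groups and a difference that did not pass (−3.53 ± 1.94, adjusted p = 0.153).

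Genes of tubule injury and progenitor state rose in 8 of 14, with 1 lower, or 2 without tumour 3233, and a median of 1.91. Krt20, a keratin of injured tubule and of urothelial and gut epithelium (chr11:99289717-99299464, minus strand), stood at 6505, 4175 and 977 units in the tumours and 5.19, 6.69, 1.63, 1.46 and 2.53 in the kidneys (log2 difference 9.53 ± 0.65, adjusted p = 5.10e-06). Lcn2, the iron-siderophore carrier known as NGAL, was read at 785, 1214 and 266 units in the tumours and 17.3, 24.1, 6.51, 2.92 and 15.2 in the kidneys (log2 difference 5.76 ± 0.69, adjusted p = 0.000103). Spp1 (osteopontin) measured 176377, 144424 and 61074 units in the tumours and 10694, 11760.4, 8958, 14489 and 38220.1 in the kidneys (log2 difference 3.01 ± 0.51, adjusted p = 0.000872). No tumour overlapped a kidney in these genes, although tumour 3130 was the lowest tumour in each. Havcr1, the injury marker KIM-1, rose by 4.74 on the log2 scale, with kidneys spread from 8.86 to 336 units. Krt7, a keratin of the distal nephron and collecting duct, was the member that fell, at 82.9, 678 and 53.2 units in the tumours and 926, 1158, 1187, 1308 and 2092 in the kidneys (log2 difference −3.14 ± 0.69, adjusted p = 0.00378). Every tumour lay below every kidney, but against the B6 kidneys alone the difference was −2.83 and did not pass. The marker Clu, at 3126, 6533 and 1448 units in the tumours and 3753, 5372, 3901, 6064 and 7229.6 in the kidneys, overlapped between the groups.

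In the Vhl and HIF machinery, 2 of 14 genes were higher and 2 lower, Vhl among the latter. Hif3a, which encodes a HIF alpha subunit with inhibitory isoforms (chr7:17616856-17647776, minus strand), stood at 817, 1086 and 1039 units in the tumours and 13.8, 24.1, 6.51, 11.7 and 13.9 in the kidneys (log2 difference 6.13 ± 0.39, adjusted p = 3.74e-06). Egln3, the prolyl hydroxylase PHD3 and itself a HIF target, was read at 4580.0, 2091 and 7956 units in the tumours and 388, 404, 570.0, 613 and 369 in the kidneys (log2 difference 3.21 ± 0.38, adjusted p = 9.57e-05). Epas1, which encodes HIF-2alpha (chr17:87153247-87232750, plus strand), measured 164, 461 and 117 units in the tumours and 1952, 1576, 2427, 2077 and 3439.6 in the kidneys (log2 difference −3.41 ± 0.41, adjusted p = 0.000108). The tumours lay above all kidneys in the first pair and below all of them in Epas1. Epas1 is also read in endothelium, whose markers fell in these tumours as given further on, and its part in the difference was not tested. Hif1a, with values of 1043, 1889 and 1281 units in the tumours and 1424, 1764, 1958, 1794 and 2359 in the kidneys, overlapped and did not pass (log2 difference −0.43 ± 0.22, adjusted p = 0.130), and neither did Arnt, Egln1 or the elongin and cullin subunits of the VHL ligase.

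Of 24 HIF target genes outside glycolysis that were tested, 12 rose and 3 fell, with a median of 1.15, and leaving out 1 library gave 9 to 14 that rose, the 9 without tumour 3130. Ankrd37, a short ankyrin repeat protein (chr8:47082256-47085221, minus strand), stood at 354, 227 and 507 units in the tumours and 13.8, 9.37, 16.3, 14.6 and 12.7 in the kidneys (log2 difference 4.61 ± 0.36, adjusted p = 9.63e-06), and its exons overlap those of Lrp2bp and Ufsp2. Stc2 (stanniocalcin 2) was read at 539, 476 and 699 units in the tumours and 8.65, 8.03, 8.14, 32.1 and 61.99 in the kidneys (log2 difference 5.01 ± 0.67, adjusted p = 0.000205), and the groups did not overlap in either gene. P4ha2 (a collagen prolyl hydroxylase) and Hilpda (an inhibitor of lipolysis on lipid droplets) also rose, by 2.76 and 3.96 on the log2 scale. Other well known targets did not. Vegfa, the angiogenic growth factor, fell, at 1809.8, 1594 and 2858 units in the tumours and 4021, 3972, 4168, 4626 and 4144 in the kidneys (log2 difference −1.05 ± 0.19, adjusted p = 0.00131). Car9, the membrane carbonic anhydrase IX, measured 213, 95.2 and 1355 units in the tumours and 196, 371, 296, 191 and 145 in the kidneys, with only tumour 3130 above the kidneys (log2 difference 0.41 ± 0.72, adjusted p = 0.652). Bnip3, a mitophagy receptor, also varied among the tumours, with 3233 below all kidneys and the others above them, at 9284, 2975 and 34274 units in the tumours and 5358, 4257, 3459, 3672 and 3135 in the kidneys (log2 difference 1.33 ± 0.62, adjusted p = 0.0956), while Adm, the vasodilator adrenomedullin, stood at 0.04 and P4ha1 at −0.01 on the log2 scale. Ccnd1 (cyclin D1) fell, at 1359, 1869.7 and 1324 units in the tumours and 3795, 6379, 7759, 2671 and 4761 in the kidneys (log2 difference −1.66 ± 0.32, adjusted p = 0.00184), and Car12, carbonic anhydrase XII, fell by 1.18 on the log2 scale. In Vegfa and Ccnd1 all tumours lay below all kidneys. Without tumour 3237 or without 3233 the number that fell was 2, and with quantile normalization of the libraries it was 1.

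Glucose uptake and glycolysis rose in 14 of 19 genes, with 2 lower and a median of 1.51, and 14 of 19 rose whichever library was left out. Slc16a3, the lactate exporter MCT4 (chr11:120809794-120822182, plus strand), stood at 3512, 1729 and 3142 units in the tumours and 5.76, 5.35, 10.7, 4.18 and 4.45 in the kidneys (log2 difference 8.63 ± 0.38, adjusted p = 1.09e-06). Exon bases of Csnk1d lie on the opposite strand of Slc16a3. Hk2, the hexokinase of growing and hypoxic cells (chr6:82675019-82724448, minus strand), was read at 495, 524 and 525 units in the tumours and 10.4, 12.05, 13.03, 13.1 and 13.9 in the kidneys (log2 difference 5.26 ± 0.28, adjusted p = 1.58e-06). All tumours lay far above all kidneys in both genes, with tumour 3233 the lowest for Slc16a3. Ldha, which turns pyruvate into lactate, measured 50589, 30792 and 69926 units in the tumours and 12526, 13359, 11336, 11834 and 7184 in the kidneys (log2 difference 2.12 ± 0.31, adjusted p = 0.000345). Aldoa, the glycolytic aldolase, stood at 30778, 23343 and 42394 units in the tumours and 11628, 12817, 10920.2, 12222 and 13021 in the kidneys (log2 difference 1.37 ± 0.22, adjusted p = 0.000663). Every tumour exceeded every kidney in both, with tumour 3130 the highest. Pdk1, which keeps pyruvate out of the mitochondrion, was read at 10798, 8395 and 14944 units in the tumours and 763, 835, 992, 1128 and 1531 in the kidneys (log2 difference 3.44 ± 0.26, adjusted p = 8.29e-06). Slc2a1, the glucose transporter GLUT1, measured 2412, 1792 and 1683 units in the tumours and 512, 564, 704, 768 and 1285 in the kidneys (log2 difference 1.42 ± 0.29, adjusted p = 0.00228). Neither overlapped, and Pkm2 (pyruvate kinase M) and Pfkp (platelet phosphofructokinase) also rose, by 3.45 and 2.64 on the log2 scale. Hk1, the hexokinase of resting tissue, fell, at 701, 917 and 269.8 units in the tumours and 1028, 1071, 1397, 1558 and 2516 in the kidneys (log2 difference −1.36 ± 0.41, adjusted p = 0.0187), with every tumour below every kidney, but its difference was −0.84 without tumour 3130 and did not pass. Gapdh had a log2 difference of 0.61 and Tpi1 of 0.88, both below the size threshold. Gapdh has many processed pseudogene copies, and their part in its value was not tested.

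The reverse pathway fell. Of 9 genes of gluconeogenesis and fructose use, 7 were lower and none higher, with a median of −3.60. Pck1, the cytosolic PEP carboxykinase, stood at 567, 3226 and 562 units in the tumours and 47254, 44333, 64717, 95231 and 99255 in the kidneys (log2 difference −6.04 ± 0.57, adjusted p = 2.68e-05). Fbp1, fructose-1,6-bisphosphatase, was read at 505, 742 and 34.9 units in the tumours and 27654, 32469, 29712, 24729.9 and 24539 in the kidneys (log2 difference −6.86 ± 0.81, adjusted p = 9.34e-05). Slc2a5, the fructose transporter GLUT5, measured 16.9, 40.1 and 0 units in the tumours and 1223, 1347, 2474, 1904 and 2599.6 in the kidneys (log2 difference −7.66 ± 0.98, adjusted p = 0.000155). In all 3 genes the highest tumour lay below the lowest kidney, and for Fbp1 and Slc2a5 tumour 3130 was the lowest. The plot of HIF pathway, glycolysis and gluconeogenesis genes sets these values side by side.

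**Figure D2:**
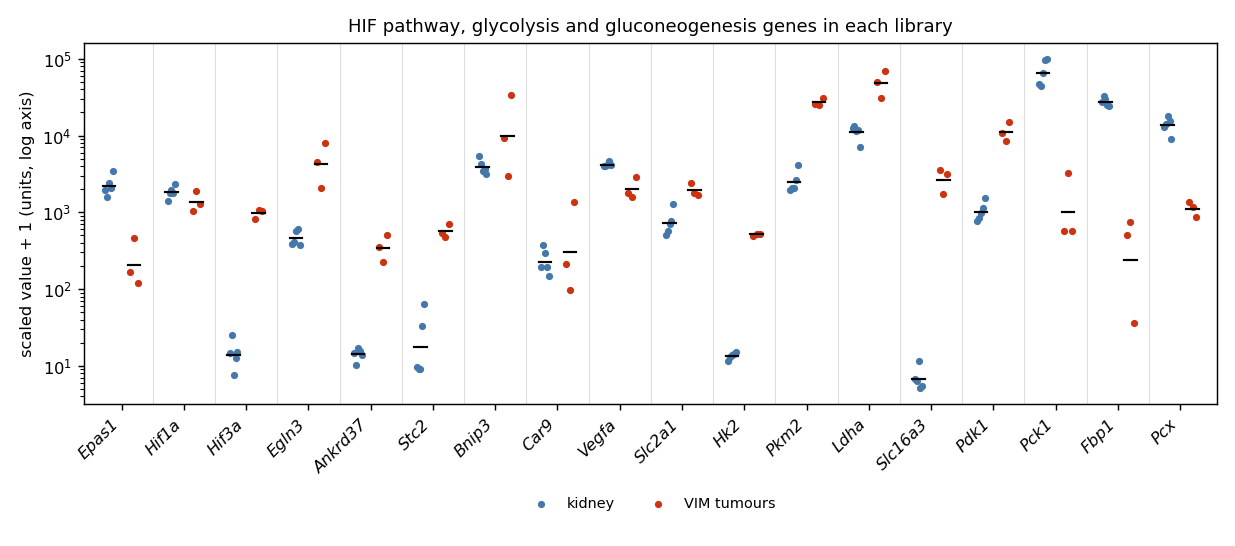
Scaled value + 1 on a log axis for 18 genes, with kidneys in blue, VIM tumours in red and a bar at the mean of the log values. Hk2 and Slc16a3 were read at under 15 units in every kidney and at 495 or more in every tumour, Car9 and Bnip3 overlapped, and Epas1, Vegfa, Pck1, Fbp1 and Pcx were lower in all 3 tumours.

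Promoter sequences are shown for glycolytic genes and HIF targets that rose, because HIF binds the core ACGTG or GCGTG. RefSeq promoters (GRCm38.p6, 250 bases before to 50 after the start) were matched for 17 of the 25 HIF targets outside glycolysis. The core occurred on either strand in 16 of the 17 (94.1%), against 46.7% of the promoters of 27025 genes. It also occurred in 17 of 20 matched ribosome biogenesis genes (85.0%), so the letters are frequent in promoters and a match is a description only. Capitals mark the core on either strand in windows of 120 bases upstream of the start, written along the strand of the gene.
Slc16a3 (chr11:120948947-120949066, plus strand): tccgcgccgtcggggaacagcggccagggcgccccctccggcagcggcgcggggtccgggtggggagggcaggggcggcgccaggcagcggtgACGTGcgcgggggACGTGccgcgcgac
Hk2 (chr6:82774455-82774574, minus strand): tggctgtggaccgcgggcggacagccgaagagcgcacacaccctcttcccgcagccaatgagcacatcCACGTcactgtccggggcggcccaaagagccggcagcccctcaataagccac
Ldha (chr7:46845684-46845803, plus strand): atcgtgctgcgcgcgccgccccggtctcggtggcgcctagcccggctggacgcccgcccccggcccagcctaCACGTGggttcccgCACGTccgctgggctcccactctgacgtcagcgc
Pdk1 (chr2:71873088-71873207, plus strand): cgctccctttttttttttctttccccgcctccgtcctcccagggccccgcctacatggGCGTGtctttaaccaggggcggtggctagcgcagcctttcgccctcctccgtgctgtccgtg
Ankrd37 (chr8:45999851-45999970, minus strand): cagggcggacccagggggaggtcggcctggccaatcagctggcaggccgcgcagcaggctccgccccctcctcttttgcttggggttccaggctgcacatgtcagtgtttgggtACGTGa
Car9 (chr4:43506906-43507025, plus strand): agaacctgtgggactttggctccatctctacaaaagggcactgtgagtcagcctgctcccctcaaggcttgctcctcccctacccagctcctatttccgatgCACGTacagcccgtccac
The Car9 window holds the core as well, although Car9 did not pass. The first match in Ldha is CACGTG, which holds the core on both strands and is also the E-box that MYC binds.

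Of 39 oxidative phosphorylation subunits 1 passed, Sdha as lower, and the median was −0.03. Summed over the list they reached 409420.1, 296514 and 573081 units in the tumours and 359929 to 450540.3 in the kidneys, so 3233 lay below every kidney and 3130 above every kidney. This order of the tumours was also that of all genes under 1 kb given above, and the part of transcript length was not tested. Sdha, the catalytic subunit of succinate dehydrogenase, stood at 8783, 8194 and 5579 units in the tumours and 13407, 15942, 18081, 17588 and 18892 in the kidneys (log2 difference −1.18 ± 0.21, adjusted p = 0.00117), and its difference was −0.97 without tumour 3130, which did not pass. Without tumour 3233, 3 subunits passed as higher. Atp5b, the catalytic beta subunit of ATP synthase, was read at 58857, 53827 and 72354 units in the tumours and 68386, 75408, 67031, 68200 and 63515 in the kidneys (log2 difference −0.16 ± 0.28, adjusted p = 0.651). Fatty acid oxidation differed: 9 of 20 genes fell, none rose, and the median was −0.86. Acsm2, a medium-chain acyl-CoA synthetase of the proximal tubule, measured 1838, 831 and 1322 units in the tumours and 146021, 192095, 183625, 139064 and 41061 in the kidneys (log2 difference −6.62 ± 0.50, adjusted p = 8.85e-06), with KT3 the lowest kidney. No tumour reached a kidney in Acsm2. The transcription factor Ppara and the peroxisomal enzyme Ehhadh fell as well, with log2 differences of −3.08 and −3.74. The trifunctional protein genes Hadha and Hadhb did not pass, with differences of 0.14 and 0.15.

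Lipid storage moved both ways, with 4 of 12 genes higher and 4 lower. Dgat1, one of the enzymes of triglyceride synthesis, was read at 1712, 951 and 3104 units in the tumours and 391, 465, 446, 428 and 462 in the kidneys (log2 difference 1.97 ± 0.31, adjusted p = 0.000565). Dgat2, the other, measured 1544, 1703 and 1360.3 units in the tumours and 3692, 4166, 4542, 4356 and 4011 in the kidneys (log2 difference −1.44 ± 0.14, adjusted p = 3.02e-05), so these enzymes differed in opposite directions without overlap. G0s2, an inhibitor of the lipase ATGL, fell, at 26.4, 58.9 and 16.5 units in the tumours and 943, 731, 1456, 883 and 376 in the kidneys (log2 difference −4.71 ± 0.48, adjusted p = 4.08e-05). Cidec, a lipid droplet protein also typical of adipocytes, stood at 69.7, 81.5 and 20.2 units in the tumours and 0, 0, 0, 0 and 12.7 in the kidneys (log2 difference 4.88 ± 0.94, adjusted p = 0.00176), and was read in all 3 tumours and was lowest in 3130, the tumour with Cfd, Adipoq and Lep. Plin2, the droplet coat protein, overlapped between the groups (log2 difference −0.39 ± 0.21, adjusted p = 0.141). In fatty acid and cholesterol synthesis 5 of 15 rose and none fell, while 3 rose without tumour 3237 and 2 without 3233, and 1 fell without 3233 or without 3130. Scd2, a stearoyl-CoA desaturase, was read at 16561, 14638 and 10414 units in the tumours and 1539.8, 1758, 2508, 1832 and 3717 in the kidneys (log2 difference 2.66 ± 0.29, adjusted p = 6.28e-05). Its paralog Scd1 measured 2699, 2083 and 2146 units in the tumours and 1354, 675, 1906, 3614 and 29359.9 in the kidneys, with KT2 and KT3 above every tumour, and did not pass, whereas Scd2 did not overlap.

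Ribosome biogenesis rose in 23 of 24 genes, with none lower and a median of 2.38, and 23 rose in every alternative tried. Npm1 (nucleophosmin) stood at 27354, 18808 and 31356 units in the tumours and 1782, 1724, 1658, 1454 and 1834 in the kidneys (log2 difference 3.91 ± 0.19, adjusted p = 1.09e-06). Nop56, a core protein of box C/D snoRNPs whose exons overlap Idh3b, was read at 2516, 3578 and 4442 units in the tumours and 289, 284, 264, 261 and 320.1 in the kidneys (log2 difference 3.59 ± 0.19, adjusted p = 1.71e-06). Ncl (nucleolin) measured 21770.2, 35349.6 and 11501 units in the tumours and 3109, 4049.5, 4932, 4149 and 5093 in the kidneys (log2 difference 2.30 ± 0.33, adjusted p = 0.000307). In all 24 genes every tumour exceeded every kidney, including Ubtf, the RNA polymerase I factor that missed the size threshold at 0.77. The 72 cytosolic ribosomal protein genes, a list added after the data were seen, passed as higher in 68 and as lower in none, with a median of 2.47. Their medians were 6634, 2685 and 10599 units in the tumours and 779 to 1346 in the kidneys. These genes are short, and their order among the tumours followed that of all genes under 1 kb given above, whose part in the difference was not tested.

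The E-box CACGTG occurred in 5 of the 20 ribosome biogenesis promoters matched (25%), read alike on both strands, against 8.09% of all promoters of that length and 5.88% (1 of 17) of the HIF target promoters. Every E-box also holds the HIF core. Promoters of Nop2, a ribosomal RNA methyltransferase, and Rrn3, the RNA polymerase I initiation factor, are shown as members that rose and hold it, with the E-box in capitals in windows of 120 bases of GRCm38.p6.
Nop2 (chr6:125131763-125131882, plus strand): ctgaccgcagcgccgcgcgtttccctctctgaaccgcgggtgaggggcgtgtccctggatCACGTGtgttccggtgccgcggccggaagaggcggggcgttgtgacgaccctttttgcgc
Rrn3 (chr16:13780579-13780698, plus strand): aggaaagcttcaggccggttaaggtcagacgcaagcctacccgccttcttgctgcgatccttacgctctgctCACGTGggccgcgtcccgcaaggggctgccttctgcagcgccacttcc
Nop2 rose by 2.33 and Rrn3 by 1.33 on the log2 scale.

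Nucleotide, serine and one-carbon synthesis rose in 14 of 23 genes, with 2 lower and a median of 1.87. Phgdh, which opens serine synthesis, stood at 2817, 2148 and 2856 units in the tumours and 48.4, 22.8, 27.7, 48.2 and 65.8 in the kidneys (log2 difference 5.99 ± 0.35, adjusted p = 2.47e-06). Mthfd1l, the mitochondrial formate-producing enzyme, was read at 1092, 1236 and 808 units in the tumours and 22.5, 12.05, 14.7, 21.9 and 17.7 in the kidneys (log2 difference 5.81 ± 0.31, adjusted p = 1.64e-06). No tumour came near a kidney in either. Cad, Rrm2 and Impdh2, which serve pyrimidine, deoxynucleotide and guanine nucleotide synthesis, rose by 3.47, 4.45 and 3.27 on the log2 scale. Odc1, the MYC target that makes putrescine, fell, at 4090.4, 3976 and 4301 units in the tumours and 55057, 43252, 39369.7, 35996 and 6553 in the kidneys (log2 difference −2.84 ± 0.60, adjusted p = 0.00303). It is also one of the androgen-dependent kidney genes, and KT3 lay nearest to the tumours, without overlap.

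Cell cycle genes rose together. All 21 mitosis and spindle genes passed as higher, with a median of 5.05, as did 19 of 20 genes of replication licensing and the fork, with a median of 2.39, and neither list held a gene that fell. Ccnb2 (cyclin B2) measured 1000, 987 and 1156 units in the tumours and 8.65, 10.7, 55.4, 10.2 and 7.59 in the kidneys (log2 difference 6.19 ± 0.58, adjusted p = 2.66e-05). Bub1, a spindle checkpoint kinase, stood at 427, 563 and 439 units in the tumours and 6.92, 4.02, 6.51, 8.76 and 8.86 in the kidneys (log2 difference 5.93 ± 0.35, adjusted p = 2.58e-06). Kidney KT1 held the highest kidney value of Ccnb2, still far below the tumours. Mki67, the proliferation marker Ki-67, was read at 2179, 3965 and 1035 units in the tumours and 81.3, 61.6, 122, 70.1 and 83.5 in the kidneys (log2 difference 4.65 ± 0.40, adjusted p = 1.54e-05). Tumour 3233 was highest for Mki67 and every tumour lay above every kidney. Mcm5, of the replicative helicase, measured 757, 1419.8 and 649.8 units in the tumours and 81.3, 58.9, 61.9, 54.01 and 69.6 in the kidneys (log2 difference 3.76 ± 0.29, adjusted p = 9.48e-06). Pcna, the sliding clamp, stood at 885, 1091 and 1327 units in the tumours and 363, 356, 314, 286 and 336 in the kidneys (log2 difference 1.72 ± 0.18, adjusted p = 4.35e-05). Neither overlapped. Mcm10 was the licensing and fork gene that did not pass (0.65).

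G1 regulators moved unevenly, with 11 of 23 higher and 2 lower. Ccne1 (cyclin E1) was read at 367, 434 and 406 units in the tumours and 5.19, 6.69, 1.63, 10.2 and 3.80 in the kidneys (log2 difference 6.11 ± 0.48, adjusted p = 9.84e-06). Cdk4, whose exons overlap Tspan31, measured 5002, 4906 and 8015 units in the tumours and 1489.6, 1576, 1142, 1175 and 1223 in the kidneys (log2 difference 2.15 ± 0.20, adjusted p = 2.61e-05). The tumours lay above the kidneys in both. Cyclin D1 fell, as given among the HIF targets, and so did Cdkn1c, the CDK inhibitor p57KIP2, at 39.5, 45.1 and 34.9 units in the tumours and 182, 199, 221, 216 and 421 in the kidneys (log2 difference −2.54 ± 0.31, adjusted p = 0.000124). In a fit of all 14 tumour and kidney libraries Cdkn1c did not pass (adjusted p = 0.0687). Among p53 and its targets, 12 of 17 rose and 1 fell, with a median of 1.63. Cdkn1a, the CDK inhibitor p21, stood at 2307, 2254 and 2563 units in the tumours and 179.9, 214, 73.3, 112 and 164 in the kidneys (log2 difference 4.08 ± 0.32, adjusted p = 1.04e-05). Eda2r, a death receptor, was read at 510.4, 402 and 2249 units in the tumours and 65.7, 78.98, 14.7, 14.6 and 16.4 in the kidneys (log2 difference 4.71 ± 0.75, adjusted p = 0.000585). Trp53 itself rose, at 866, 1487 and 786 units in the tumours and 369, 400.3, 449.5, 371 and 383 in the kidneys (log2 difference 1.35 ± 0.22, adjusted p = 0.000606). No tumour overlapped a kidney in Cdkn1a, Eda2r or Trp53. Ccng1, another target of p53, overlapped between the groups (log2 difference −0.39 ± 0.43, adjusted p = 0.467), and Sesn2, the member that fell, had a difference of −1.32, or −0.94 without tumour 3237, which did not pass.

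Glutamine metabolism and amino acid transport rose in 9 of 17 genes and fell in 2. Slc7a5, the leucine transporter LAT1, measured 1211, 3259 and 1494 units in the tumours and 44.98, 40.2, 43.97, 36.5 and 68.3 in the kidneys (log2 difference 5.28 ± 0.35, adjusted p = 4.39e-06). Asns, asparagine synthetase, stood at 2299, 2419 and 1641 units in the tumours and 48.4, 48.2, 68.4, 107 and 91.1 in the kidneys (log2 difference 4.90 ± 0.31, adjusted p = 3.45e-06). Gls2, the liver-type glutaminase, rose from the floor, at 109, 203 and 114 units in the tumours and 3.46, 4.02, 1.63, 2.92 and 1.26 in the kidneys. Ass1, argininosuccinate synthetase, with which the proximal tubule makes arginine, fell, at 439, 195 and 209 units in the tumours and 5955, 7049.5, 5951, 5088 and 4531 in the kidneys (log2 difference −4.43 ± 0.27, adjusted p = 3.00e-06). Tumours and kidneys did not overlap in Slc7a5, Asns, Gls2 or Ass1. Of 14 NRF2 targets 3 were higher and 3 lower, near the 19.3% and 21.4% of all genes tested. Slc7a11, the cystine importer, was read at 41.4, 37.6 and 27.5 units in the tumours and 5.19, 5.35, 1.63, 2.92 and 3.80 in the kidneys (log2 difference 2.99 ± 0.44, adjusted p = 0.000339), whereas Nqo1, the classical quinone reductase target, measured 77.2, 199 and 62.4 units in the tumours and 1545, 1216, 1417, 1378 and 1131 in the kidneys (log2 difference −3.74 ± 0.33, adjusted p = 1.96e-05). Both were free of overlap. Without tumour 3233, 1 NRF2 target passed as higher, and 1 of the glutamine and amino acid genes as lower.

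The study named its epithelial and mesenchymal genes in a comparison of a VIM with a VM cell line, not of tumours with kidney. Between tumours and kidney those genes did not change in one direction. Of 21 genes of a wider list, which mixes epithelial and mesenchymal genes, 5 were higher and 7 lower, or 6 and 4 without KT2 and KT3. Cdh1 (E-cadherin) stood at 2075, 3847 and 255 units in the tumours and 2600.3, 2818, 3326, 3775 and 4372 in the kidneys (log2 difference −1.39 ± 0.71, adjusted p = 0.125), with tumours 3237 and 3130 below all kidneys and 3233 among them. Cdh2 (N-cadherin), which the mouse proximal tubule also expresses, fell, at 7.53, 15.04 and 3.67 units in the tumours and 93.4, 115, 119, 75.9 and 60.7 in the kidneys (log2 difference −3.40 ± 0.45, adjusted p = 0.000201). Vim (vimentin) rose, at 1847, 2653 and 1129 units in the tumours and 417, 527, 562, 537 and 831 in the kidneys (log2 difference 1.66 ± 0.29, adjusted p = 0.00104). The groups did not overlap in Cdh2 or Vim. Among the transcription factors of epithelial-mesenchymal transition, Snai2 fell, at 1.88, 5.01 and 5.51 units in the tumours and 60.6, 29.5, 26.1, 45.3 and 79.7 in the kidneys (log2 difference −3.23 ± 0.50, adjusted p = 0.000468). Zeb1 fell, at 26.4, 62.7 and 53.2 units in the tumours and 201, 173, 173, 156 and 271 in the kidneys (log2 difference −2.07 ± 0.34, adjusted p = 0.000646). All tumours lay below all kidneys in both. Zeb2 measured 635, 878 and 1127 units in the tumours and 573, 476, 599, 506 and 822 in the kidneys (log2 difference 0.55 ± 0.24, adjusted p = 0.0733). Snai1 stood at 16.9, 12.5 and 14.7 units in the tumours and 29.4, 5.35, 17.9, 16.1 and 18.98 in the kidneys (log2 difference −0.08 ± 0.52, adjusted p = 0.901). Both overlapped and neither passed. Twist1 stood at 0, 2.51 and 3.67 units in the tumours and 3.46, 5.35, 8.14, 7.30 and 15.2 in the kidneys, at or below the floor in the tumours, and its pass ended in 13 of 21 alternatives, among them those without tumour 3237, without 3233 and without each of B62, KT1, KT2 and KT3. Krt19, a keratin of simple and ductal epithelium, rose, at 736, 919.8 and 461 units in the tumours and 3.46, 4.02, 0, 8.76 and 18.98 in the kidneys (log2 difference 6.99 ± 0.83, adjusted p = 9.78e-05), as did the kidney cadherin Cdh6, at 318, 615 and 323 units in the tumours and 12.1, 14.7, 19.5, 42.3 and 237 in the kidneys (log2 difference 3.57 ± 0.86, adjusted p = 0.00598). Epcam, Cldn7 and Esrp1 were lowest in tumour 3130, at 49.6, 16.5 and 12.8 units, and of these only Epcam passed (−2.19). In Krt19 and Cdh6 every tumour exceeded every kidney.

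Of the 5 lysyl oxidases, which crosslink collagen and elastin, 3 rose. Loxl2 was read at 2034, 2068 and 2858 units in the tumours and 133, 107, 159.6, 152 and 247 in the kidneys (log2 difference 3.89 ± 0.27, adjusted p = 5.16e-06), Loxl1 at 815, 832 and 701 units in the tumours and 285, 205, 235, 242 and 399.7 in the kidneys (log2 difference 1.55 ± 0.23, adjusted p = 0.000362) and Lox at 88.5, 148 and 226 units in the tumours and 22.5, 28.1, 32.6, 36.5 and 54.4 in the kidneys (log2 difference 2.07 ± 0.41, adjusted p = 0.00191). These 3 were higher in every tumour than in any kidney, although Lox did not pass in the fit of 14 libraries (adjusted p = 0.0569). Loxl3 and Loxl4 did not pass, with log2 differences of 0.71 and −0.92. Has2, a hyaluronan synthase, was at 0 in all kidneys and at 0, 2.51 and 0 in the tumours, under the floor, and was not tested. Cd44, the hyaluronan receptor, measured 1341, 1368 and 938 units in the tumours and 53.6, 88.4, 63.5, 48.2 and 98.7 in the kidneys (log2 difference 4.12 ± 0.29, adjusted p = 6.24e-06). The tumours exceeded the kidneys without overlap. Of 10 tested genes of lysyl oxidases and hyaluronan, 5 were higher and 2 lower. Among 17 collagen and matrix genes 3 were higher and 3 lower, near the 19.3% and 21.4% of all genes tested. Col12a1, a fibril-associated collagen, rose, at 987, 1164 and 2561 units in the tumours and 74.4, 61.6, 78.2, 74.5 and 176 in the kidneys (log2 difference 4.04 ± 0.40, adjusted p = 3.72e-05). Col4a3, of the mature glomerular and tubular basement membrane, fell, at 50.8, 258 and 18.4 units in the tumours and 4528, 4715, 7534, 8482 and 8220.1 in the kidneys (log2 difference −6.66 ± 0.67, adjusted p = 3.96e-05). Neither overlapped between the groups. Col4a1, of all basement membranes, overlapped between the groups (0.06).

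Matrix proteases and their inhibitors passed as higher in 7 of 15 and as lower in 2. Mmp7 (matrilysin) was read at 90.4, 81.5 and 9.18 units in the tumours and 1.73, 1.34, 0, 0 and 0 in the kidneys, with kidneys at or below the floor. Mmp12, the macrophage elastase, measured 2032, 4252 and 145 units in the tumours and 60.6, 52.2, 47.2, 26.3 and 22.8 in the kidneys (log2 difference 4.76 ± 0.92, adjusted p = 0.00182), lowest in tumour 3130. Timp3, a protease inhibitor bound to matrix, fell, at 2759, 4189.7 and 2821 units in the tumours and 51307, 51698, 72423, 59808 and 53228 in the kidneys (log2 difference −4.16 ± 0.23, adjusted p = 1.79e-06), whereas Timp1 rose by 4.76 on the log2 scale. The groups did not overlap in any of these. Without tumour 3130 or any 1 kidney other than KT1, 1 member was lower, and without tumour 3233 the counts were 5 higher and 3 lower.

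A VIM cell line gave values in culture. In VIM-3039 cells on Dox, 4 libraries of 1 line, Cdh2 was read at 4805, 4957, 5154 and 4860.1 units, Vim at 32634, 34019.9, 34760.5 and 34065 and Cdh1 at 83.3, 95.7, 74.1 and 88.9. Lox stood at 2001, 2070.0, 2226 and 1988 and Has2 at 455, 564, 553 and 476 in these cells. The cells held Cdh2, Vim, Lox and Has2 above every tumour and Cdh1 below every tumour, and no test was made because the 4 libraries are of 1 line. Krt20, Gpnmb and Slc16a3 stood at 5.95, 54.9 and 10186 units on average in the cells. The plot of epithelial, mesenchymal and matrix genes gives the 3 sources together.

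**Figure D3:**
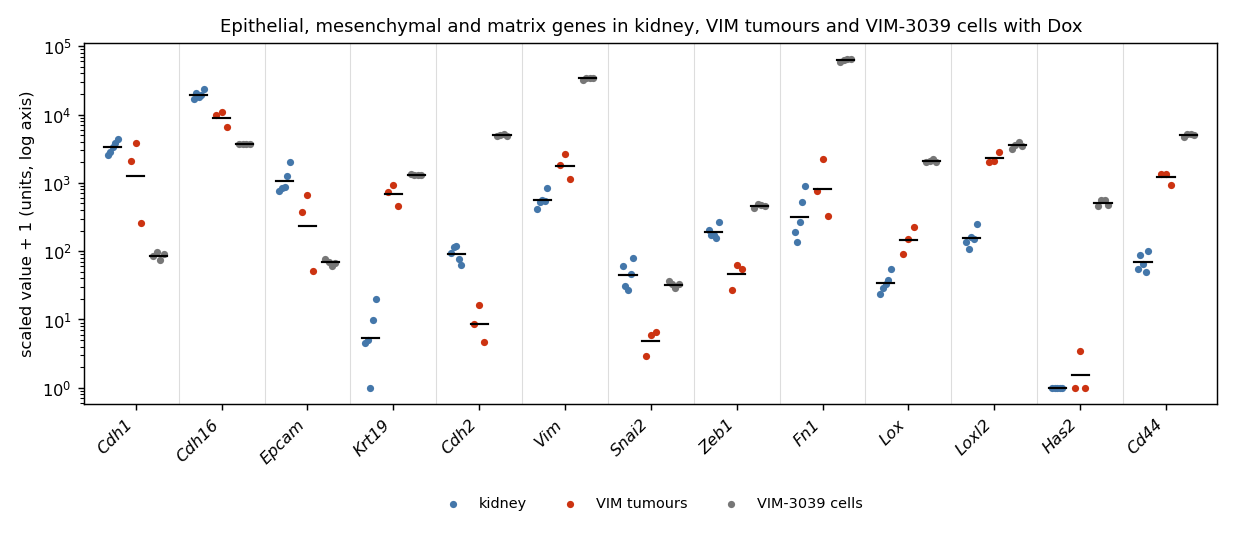
Scaled value + 1 on a log axis for 13 genes in 5 kidneys (blue), 3 VIM tumours (red) and 4 libraries of VIM-3039 cells with Dox (grey), with bars at the mean of the log values. Cdh2, Snai2 and Zeb1 were lower in tumours than in kidney, Loxl2 and Cd44 were higher, and Vim, Cdh2, Fn1, Lox and Has2 were highest in the cells.

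Markers of other cell types changed in opposite directions. Endothelial markers passed as lower in 12 of 14 and as higher in 1, with a median of −2.93, and 12 were lower whichever library was left out, while 2 were higher without KT3. Kdr, the VEGF receptor 2, stood at 62.1, 105.3 and 66.1 units in the tumours and 888, 858, 1289.9, 704 and 1184 in the kidneys (log2 difference −3.65 ± 0.26, adjusted p = 6.51e-06). Plvap, of fenestrated endothelium, was read at 259.9, 405 and 712 units in the tumours and 1934, 1720.2, 1834, 1562 and 2794 in the kidneys (log2 difference −2.19 ± 0.31, adjusted p = 0.000272). Vwf (von Willebrand factor) was the endothelial marker that rose, at 136, 41.4 and 49.6 units in the tumours and 17.3, 8.03, 9.77, 13.1 and 21.5 in the kidneys (log2 difference 2.23 ± 0.50, adjusted p = 0.00416). No tumour overlapped a kidney in these markers. Summed, the endothelial list reached 1341, 2140.4 and 2498 units in the tumours against 9155 to 15761 in the kidneys. Mural cell markers were lower in 4 of 7 and higher in 1, or lower in 3 without KT2 and KT3. Myh11, the smooth muscle myosin, measured 11.3, 57.6 and 22.03 units in the tumours and 225, 230.3, 404, 502 and 678 in the kidneys (log2 difference −3.87 ± 0.54, adjusted p = 0.000258). Cspg4 (NG2) stood at 1501, 2025 and 1008 units in the tumours and 246, 295, 466, 536 and 586 in the kidneys (log2 difference 1.85 ± 0.33, adjusted p = 0.00120). The former fell and the latter rose without overlap. Fibroblast markers passed in 2 of 9, against 40.6% of all genes tested, with Postn (periostin) higher and Pdgfra lower. Col1a2, Col3a1 and Dcn did not pass, while 3 fibroblast markers were lower without tumour 3130 and 2 without B62. Their median was 0.17, or −0.01 with 1 marker left out that lay at the floor in both groups.

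Macrophage markers rose in 11 of 12, with a median of 2.09, and in 10 without any 1 of the tumours. Trem2, a lipid-sensing receptor of macrophages, was read at 631, 469.9 and 334 units in the tumours and 8.65, 2.68, 1.63, 0 and 5.06 in the kidneys (log2 difference 7.03 ± 0.68, adjusted p = 3.19e-05). Cd68 measured 1571, 1024 and 559.9 units in the tumours and 27.7, 33.5, 34.2, 29.2 and 43.01 in the kidneys (log2 difference 4.82 ± 0.34, adjusted p = 6.51e-06), and the lysozyme gene Lyz2 11377, 4851 and 6531 units in the tumours and 455, 449.8, 287, 267 and 316 in the kidneys (log2 difference 4.36 ± 0.29, adjusted p = 4.77e-06). The lowest tumour was above the highest kidney in all 3 genes. Csf1r, the receptor that macrophages need to survive, was the marker that did not pass (log2 difference −0.15 ± 0.34, adjusted p = 0.740). Of 5 neutrophil markers 4 rose, among them S100a8, at 171, 67.7 and 187 units in the tumours and 6.92, 8.03, 1.63, 10.2 and 15.2 in the kidneys (log2 difference 4.02 ± 0.62, adjusted p = 0.000476), without overlap. The T and NK cell markers had a median of −2.17. With 4 members set to their bound and 1 at the floor in both groups left out, it was −1.53. These markers passed as lower in 10 of 13 and as higher in none. Their values were low throughout: Cd3g was at 0 in the tumours and at 20.8, 21.4, 1.63, 10.2 and 21.5 in the kidneys, at least 3.04-fold higher, and Cd8a stood at 1.88, 10.03 and 1.84 units in the tumours and 50.2, 28.1, 26.1, 17.5 and 39.2 in the kidneys (log2 difference −2.80 ± 0.56, adjusted p = 0.00227). Cd8a did not overlap. With a pseudocount of 10 units 3 of the 13 passed, and against the B6 kidneys alone 2 did. Over the 21 alternatives the number that passed as lower was 1 to 10. Of 4 B cell markers 3 passed as lower, but none did without tumour 3237, without 3130 or without KT2 and KT3 together, and 1 did without KT2 or without B62. The plot of summed marker levels shows each library.

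**Figure D4:**
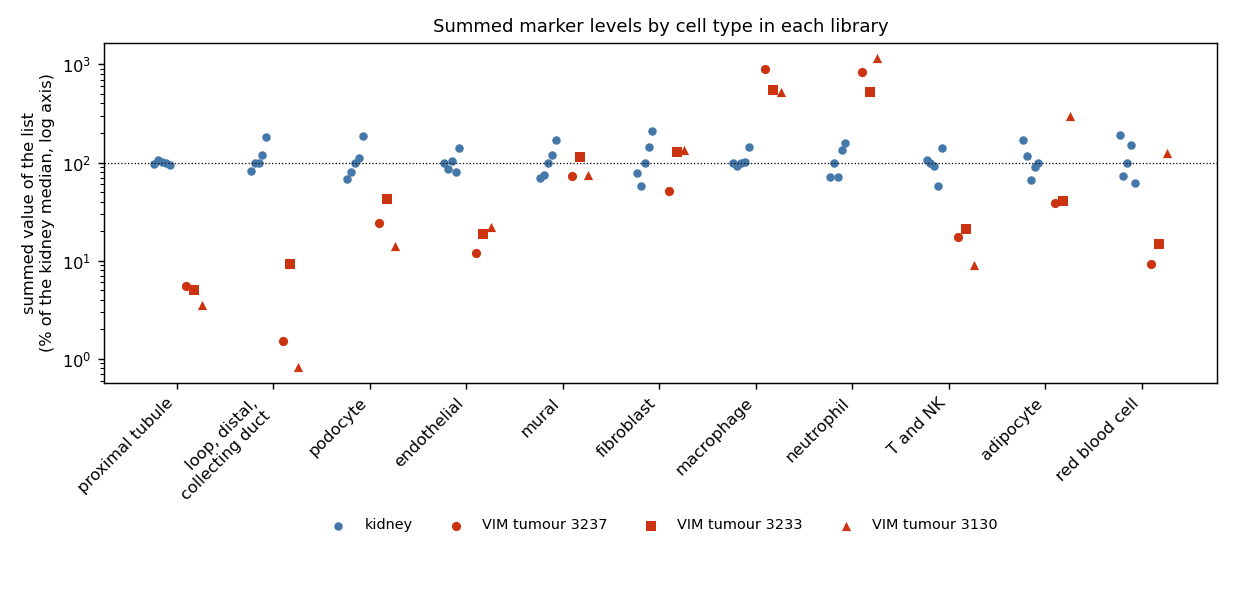
Summed value of each marker list as a percentage of the kidney median, on a log axis, with kidneys as blue circles and the tumours as red circles (3237), squares (3233) and triangles (3130). Macrophage and neutrophil sums were above all kidneys in the 3 tumours, tubule, podocyte, endothelial and T and NK sums were below them, and the adipocyte sum was above all kidneys in tumour 3130 alone.

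Red blood cell transcripts depended on the libraries included. Hbb-b1 was read at 73.4, 92.7 and 1298 units in the tumours and 2332, 738, 966, 1558 and 630.0 in the kidneys, with tumour 3130 among the kidneys, and the list gave 2 of 3 lower with all libraries, 3 without tumour 3130, 1 without B62 and 0 without any 1 of 3237, 3233, B61, KT1 and KT2. Fabp4, read in adipocytes and capillary endothelium, measured 188, 194 and 953 units in the tumours and 1147, 779, 451, 607 and 657 in the kidneys (log2 difference −1.08 ± 0.52, adjusted p = 0.105). Neither adrenal cortex nor urothelium markers passed in any member tested, 3 and 4 genes, although 1 urothelium marker was higher without 3233 and 1 lower without 3130. The defining markers Cyp11b1, Cyp11b2 and Nr5a1 were at 0 in all tumours. Mylpf, the skeletal muscle marker tested, stood at 26.4, 25.1 and 27.5 units in the tumours and 3.46, 22.8, 0, 2.92 and 5.06 in the kidneys, and its pass was lost without any 1 of the tumours and without B61 or KT2.

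Antigen presentation and interferon response genes fell in 11 of 21 and rose in 1, or in none without tumour 3237, with a median of −1.48. The class II antigen presentation genes were among them. H2-Eb1, a class II beta chain, was read at 126, 152 and 84.4 units in the tumours and 1804, 1863, 1761, 1480.3 and 2008 in the kidneys (log2 difference −3.91 ± 0.20, adjusted p = 1.58e-06). Ciita, the master regulator of class II genes, stood at 5.65, 8.77 and 1.84 units in the tumours and 96.9, 133, 119, 71.5 and 134 in the kidneys (log2 difference −4.26 ± 0.46, adjusted p = 5.37e-05). Both were far below every kidney in all tumours. B2m, the light chain of class I molecules, was lower without overlap but under the size threshold (log2 difference −0.96 ± 0.21, adjusted p = 0.00387), and H2-K1 overlapped (0.20). Chemokines passed as higher in 7 of 15 and as lower in 4. Cxcl5, a neutrophil attractant, measured 181, 133 and 64.2 units in the tumours and 1.73, 1.34, 0, 0 and 1.26 in the kidneys, with kidneys at or below the floor. Cxcl1, which acts on the same receptor, stood at 821, 392 and 1114 units in the tumours and 20.8, 14.7, 22.8, 24.8 and 6.33 in the kidneys (log2 difference 5.36 ± 0.50, adjusted p = 2.52e-05). Cxcl12, the ligand of CXCR4, fell, at 33.9, 81.5 and 362 units in the tumours and 2067, 1794, 2536, 2577 and 4039 in the kidneys (log2 difference −4.62 ± 0.62, adjusted p = 0.000204). Cxcl9, an interferon-induced T cell attractant, fell, at 1.88, 6.27 and 12.8 units in the tumours and 91.7, 109.8, 101, 29.2 and 123 in the kidneys (log2 difference −3.65 ± 0.62, adjusted p = 0.000831). None of the 4 chemokines named overlapped between the groups. Among 9 immune checkpoint genes, Havcr2 (TIM-3) passed as higher and Cd274 (PD-L1) as lower. Of the 9, 4 lay at or below the floor in every library of both groups. Havcr2 lost its pass without tumour 3237 (log2 difference 1.29), and Cd274 lost its pass without tumour 3130 (−0.68) and without each of B61, B62, KT1 and KT3, while 2 checkpoint genes were higher without 3130.

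Receptor tyrosine kinases and ligands were lower in 6 of 17 and higher in 2. The number lower was 3 without tumour 3130, and the number higher was 1 without any 1 of 3237, 3233, B61 and KT1. Epha2, an ephrin receptor of epithelium, rose, at 429, 396 and 253 units in the tumours and 70.9, 36.1, 74.9, 83.2 and 96.1 in the kidneys (log2 difference 2.33 ± 0.35, adjusted p = 0.000424). Fgfr2 fell, at 11.3, 55.1 and 12.8 units in the tumours and 169.6, 214, 280.1, 375 and 519.9 in the kidneys (log2 difference −3.77 ± 0.55, adjusted p = 0.000339). Neither overlapped. Met, the hepatocyte growth factor receptor, measured 3676, 3692 and 1349 units in the tumours and 6394, 6722, 6818, 5378 and 4053 in the kidneys (log2 difference −1.13 ± 0.34, adjusted p = 0.0178), and its difference of −0.65 without tumour 3130 did not pass. Oncofetal and imprinted genes rose in 8 of 16 and fell in 4, with 4 that rose without tumour 3237 and 5 without 3233. Afp (alpha-fetoprotein) stood at 3090.4, 2163 and 4562 units in the tumours and 29.4, 13.4, 26.1, 37.96 and 37.95 in the kidneys (log2 difference 6.79 ± 0.38, adjusted p = 1.97e-06). Peg10, an imprinted retrotransposon-derived gene, was read at 2539, 5895 and 58.7 units in the tumours and 5.19, 2.68, 4.89, 7.30 and 6.33 in the kidneys (log2 difference 7.31 ± 1.23, adjusted p = 0.000775). Afp was even across the tumours, while Peg10 in tumour 3130 was a small fraction of its value in the others. Lin28b, a blocker of let-7 processing (chr10:45096426-45206201, minus strand), was at 0 in all kidneys and at 47.1, 137 and 86.3 in the tumours, at least 20.2-fold higher. Igf2bp1, an oncofetal RNA-binding protein, fell instead, at 13.2, 10.03 and 3.67 units in the tumours and 107, 129, 53.7, 102 and 22.8 in the kidneys (log2 difference −2.99 ± 0.62, adjusted p = 0.00275), with KT3 the lowest kidney and no overlap. Among 14 kidney cancer tumour suppressors besides Vhl, Trp53 alone passed, and 2 did without tumour 3130. Immediate early genes rose in 7 of 9, with Atf3, a stress-induced factor, at 1669, 1402 and 1347 units in the tumours and 46.7, 53.5, 29.3, 45.3 and 87.3 in the kidneys (log2 difference 4.87 ± 0.32, adjusted p = 4.50e-06) and Fos at 241, 130.3 and 110.1 units in the tumours and 8.65, 6.69, 14.7, 18.98 and 56.9 in the kidneys (log2 difference 3.18 ± 0.64, adjusted p = 0.00222). Neither overlapped.

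Ranked over all genes, the largest rises among genes with at least 50 units in the higher group were led by Gpnmb, a glycoprotein of lysosomes and melanosomes (chr6:48986517-49020928, plus strand), at 10207, 8004 and 13057 units in the tumours and 3.46, 1.34, 3.26, 5.84 and 6.33 in the kidneys (log2 difference 11.10 ± 0.41, adjusted p = 8.54e-07). Barx2, a homeobox gene, stood at 879, 586 and 1412 units in the tumours and 1.73, 0, 0, 0 and 0 in the kidneys, and Lgi2 at 1252, 702 and 659 units in the tumours and 0, 2.68, 0, 1.46 and 3.80 in the kidneys. Kidney values of these 3 genes lay at or close to the floor. Ntsr1, the neurotensin receptor, was at 0 in all kidneys and at 422, 249 and 441 in the tumours, at least 83.2-fold higher, and Gm6724 was at least 56.6-fold higher. Arg1, Chi3l3 and Clec4d, which are read in activated macrophages, also ranked here, with Chi3l3 at 2772, 465 and 187 units in the tumours and 1.73, 5.35, 0, 0 and 2.53 in the kidneys. Epha8 and Lingo3 stood at 249, 207 and 1621 and 443, 638 and 286 units in the tumours and at most at 4.89 and 1.73 in the kidneys.

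The largest falls were tubule genes. Beside Slco1a1, Slc22a12 and Kap they held Slc22a28, an organic anion transporter, at 0, 1.25 and 0 units in the tumours and 12777, 13120.5, 10388, 9210.2 and 1141 in the kidneys (passed, adjusted p = 3.00e-06). Pzp, a protease-binding protein, was at 0 in every tumour and at 6111, 8087, 8498, 4857 and 325 in the kidneys, at least 1121-fold higher there. Slc7a13, an aspartate and cystine transporter, was read at 1.88, 60.2 and 3.67 units in the tumours and 33265, 24616, 24648, 26905 and 865 in the kidneys, and Ttr (transthyretin) at 0, 6.27 and 9.18 units in the tumours and 8384, 5165, 5275, 8623 and 1479 in the kidneys. In Slc22a28, Pzp, Slc7a13 and Ttr, KT3 was the lowest kidney. Both rankings took only genes whose groups did not overlap, so that KT3 exceeded every tumour follows from that choice. Slc22a30, Cckar, Slc22a22, Mep1b and Acsm3 completed the 12, with at most 50.1 units in a tumour.

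VIM tumours were next set against VM tumours, which carry Vhl loss and MYC with Ink4a/Arf intact. Of 15411 genes tested 42 passed (0.273%), 30 (0.195%) higher and 12 (0.0779%) lower in VIM tumours, and 1795 had an unadjusted p under 0.05. The count rested on single libraries: it was 2 without VIM tumour 3237, 3 without 3233 and 43 without 3130, and 19, 13 and 7 without each of the VM tumours. Of these, 0 were higher in VIM tumours without 3237 and 1 was without 3233, and 2 were lower in each case. The higher genes named next, Lin28b, Kap, Cyp2e1 and Atp6v0d2, therefore did not pass without 3237. Nor did all of the lower genes named, Cdkn2a, Hk2 and Slc2a2, pass without 3237 or without 3233. Beside Cdkn2a, Hk2 was lower, at 495, 524 and 525 in VIM and 4325, 4108 and 1821 in VM tumours (log2 difference −2.63 ± 0.34, adjusted p = 0.0322), and so was the glucose transporter gene Slc2a2 (log2 difference −2.38 ± 0.33, adjusted p = 0.0355). Lin28b was higher in VIM tumours, with VM values of 0, 2.06 and 0 (adjusted p = 0.0342), and so were Kap, with 3.99, 1.03 and 3.70 in VM tumours (adjusted p = 0.0245), both at or below the floor there, and Cyp2e1, an ethanol-oxidising cytochrome P450 (log2 difference 7.27 ± 0.84, adjusted p = 0.0252). The residual Kap and Cyp2e1 of VIM tumours, though at most 1516 and 1394 units, exceeded those of VM tumours without overlap. Atp6v0d2, a proton pump subunit of intercalated cells and macrophages, which did not pass against kidney, was higher than in VM tumours (log2 difference 2.87 ± 0.42, adjusted p = 0.0457). No other member of any list passed. A p that misses the threshold does not show that the groups are alike, and with 3 against 3 libraries the log2 difference carried an SE of 0.47 for Vhl, which stood at 79.9, 40.2 and 40.7 units in VM tumours (2.27, adjusted p = 0.130).

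Against MYC tumours, in which neither Vhl nor Ink4a/Arf was altered, 1 of 16246 genes passed (0.00616%), and 2361 had an unadjusted p under 0.05. Of the 3 MYC libraries, 2 come from mouse 2983 and entered as 1 mouse, and with each library on its own 7 genes passed. The gene was Ftcd, a folate-dependent enzyme of histidine breakdown, higher by 5.31 on the log2 scale in VIM tumours. Vhl stood at 559.7, 471 and 468 units in MYC tumours, of which the last pair come from the same mouse, and every VIM tumour lay below them. Slc16a3 and Cdkn2a differed widely among MYC tumours, at 39.3, 1672 and 474 and 108, 2872 and 59.3 units. The plot of the 3 tumour groups shows the genes compared.

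**Figure D5:**
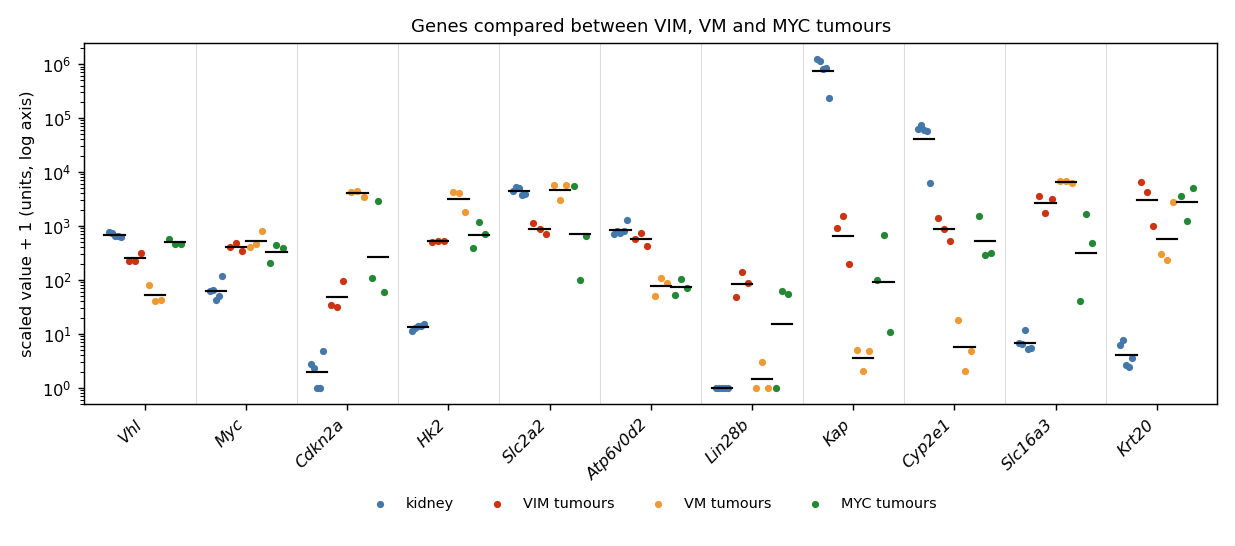
Scaled value + 1 on a log axis for 11 genes in 5 kidneys (blue), 3 VIM tumours (red), 3 VM tumours (orange) and 3 libraries of MYC tumours from 2 mice (green), with bars at the mean of the log values. Cdkn2a and Hk2 were lower and Lin28b, Kap, Cyp2e1 and Atp6v0d2 higher in VIM than in VM tumours, and Hk2 and Slc16a3 were above kidney in all tumour groups.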

How the data were processed

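RNA-seq was made from 3 VIM tumours and 5 normal kidneys with a stranded, paired-end mRNA kit. The deposited table holds signal values made by the authors: reads were aligned to mm9 with MapSplice, processed with Picard 1.64, SAMtools and UBU, quantified per UCSC gene by RSEM, and divided by a factor per library that sets its upper quartile to 1000. These are not counts, so no count model was the main test. The 16068 of 21705 genes with a value over 0 in 3 or more of the 8 libraries were tested with limma 3.58.1 (R 4.3.3) on log2(value + 1) with a variance trend, two-sided, with Benjamini-Hochberg adjustment over all of them. The reads of a library were estimated from the smallest step between its low values, and values for 3 reads were used as the floor. They cover counting error only. VIM tumours were compared in the same way with 3 VM tumours and with MYC tumours of 2 mice. The test was run on simulated data before use. All p-values are from limma unless called exact.

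The samples were chosen by their titles. That choice, the 47 gene lists and the rules were made with earlier results of these data known, so the counts are descriptions. Genes were named as the engineered genes, 12 epithelial and matrix genes of the study, up to 2 rises, 2 falls and the 2 highest members of each list, the 12 largest rises and falls without overlap and with 50 units or more on average in the higher group, and defining markers of other cell types. Some members of the lists are counted but not reported here by name. These genes were chosen after their values were seen: Adipoq, Adm, Arnt, Asns, Atp6v0d2, Cad, Car9, Cldn7, Csf1r, Cxcl1, Cyp11b1, Cyp11b2, Cyp2e1, Dcn, Ehhadh, Epcam, Esrp1, Fn1, Ftcd, Gapdh, Hadha, Hadhb, Havcr1, Hif1a, Hilpda, Impdh2, Lep, Lin28b, Loxl3, Loxl4, Mcm10, Nop2, Nr5a1, P4ha1, P4ha2, Pax2, Pcx, Pdk1, Pfkp, Pkm2, Plin2, Ppara, Ppargc1a, Rrm2, Rrn3, Sall1, Slc2a1, Slc2a2, Slc3a1, Slc7a12, Slc7a9, Timp1, Tpi1, Trpm6, Ubtf and Vegfa. Alternatives comprised pseudocounts, filters, scalings, weights, kidney subsets and leaving out each library. Voom on estimated reads and the fit without KT2 and KT3 were added after seeing the data. Promoters came from RefSeq tables of GRCm38.p6, and exon overlaps from gene positions in mm9.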

Additional observations from a re-analysis of the deposited data

Results flagged for a closer look

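Of 202 genes named here and tested, 28 (13.9%) had 1 kidney far from the other 4, by a gap over 0.71 of the range on the log2 scale. Chance gives about 1 in 20 for independent groups of normally spread values. Barx2, Clec4d, Lingo3, Epha8 and Cidec had the other 4 kidneys at 0, and most flags share 1 kidney. The 13.9% therefore cannot be set against that rate. Kidney KT3 accounted for 22 of the 28.

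In KT3 the values were lowest for Slco1a1 (1073 units), Slc22a30 (440.2), Slc7a13 (865), Acsm3 (1719), Cyp2e1 (6278), Slc22a28 (1141), Pzp (325), Odc1 (6553), Acsm2 (41061), Kap (233226) and Slc22a12 (23402), mostly genes of the proximal tubule. The same holds for Eif2s3y (39.2), Ldha (7184) and P4ha2 (339). KT3 was highest for Slc3a1 (20937), Esrrb (768), Atp6v0d2 (1273), Cdkn1c (421), Col12a1 (176), Sall1 (1938), Alb (674) and Cidec (12.7, against 0 in the other kidneys).

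Kidney KT1 was highest for Ccnb2 (55.4 units against at most 10.7) and Epha8 (4.89 against 0). B61 was highest for Barx2, Clec4d and Lingo3, each at 1.73 against 0, which is about 1 read. KT2 was lowest for Cxcl9, at 29.2 units against 91.7 to 123.

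Between VIM and VM tumours, log2 differences past the threshold were −6.40 for Cdkn2a, −2.63 for Hk2, −2.38 for Slc2a2, 7.47 for Kap, 7.27 for Cyp2e1, 5.84 for Lin28b and 2.87 for Atp6v0d2. Orm1 gave 6.14. The values of Kap, Lin28b and Orm1 depend on the added unit, because all VM tumours lie at or below the floor. Against MYC tumours, Ftcd gave 5.31.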

How the results depend on the processing

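The number of genes that passed between VIM tumours and kidney, 6529, was 4821 (B6 kidneys only) to 7846 (array weights) under the 21 alternatives, and 5836 to 6578 when 1 library was left out. It was 6485 with voom on estimated reads and 6103 without KT2 and KT3, both chosen after seeing the data. The share lower in tumours, 52.6%, was 47.3% to 55.3% over these alternatives. The count between VIM and VM tumours, 42, was 21 with a pseudocount of 0.1 and 2 to 43 when 1 library was left out, and the cause was not tested. Against MYC tumours 7 genes passed with each library on its own, against 1. When 1 library was left out, the log2 differences were −1.61 to −1.36 for Vhl, 2.52 to 2.90 for Myc and 4.05 to 4.89 for Cdkn2a, and the exact permutation p was 0.0571 or 0.0952, the smallest then possible. With all libraries Cdkn2a gave 4.57, but 6.18 with a pseudocount of 0.1 and 2.34 with 10, since the kidneys lie at the floor. Of the 174 genes that the naming rule chose and that passed, 146 passed in every alternative and 28 did not in at least 1. Against the B6 kidneys alone, Scd1 changed sign, from −0.31 to 1.26. The Xist difference went from −2.47 to 2.89. Xist was at 0 in B61 and B62, so the size of the 2.89 depends on the added unit. Counts moved by over 1.5 times in at least 1 alternative for 16 of 47 lists. No paired analysis was possible because tumours and kidneys are different animals and share no replicate number in the labels.

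Depth limits low genes. Values under 3.76 to 5.65 units in a tumour rest on fewer than 3 reads, and the B cell markers, for example, sum to only 3.77 to 17.5 units over their list in the tumours. The scaling to an upper quartile makes all values relative within a library, so a change in total RNA per cell was not measured. With 3 tumours, small differences were not detectable, and a gene that did not pass is not shown to be equal.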

Other observations

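Several genes of the liver's secreted and metabolic repertoire, chosen after their values were seen, were higher in VIM tumours than in kidney. The 3 fibrinogen chains rose together. Fga was read at 1207, 1579 and 1823 units in the tumours and 206, 222, 292, 604 and 616 in the kidneys (log2 difference 2.13 ± 0.40, adjusted p = 0.00145). Fgb was read at 674, 942 and 819 units in the tumours and 5.19, 0, 3.26, 5.84 and 68.3 in the kidneys (log2 difference 6.93 ± 1.08, adjusted p = 0.000496). Fgg was read at 2024, 1100.3 and 2981 units in the tumours and 140.1, 131, 130.3, 249.6 and 239 in the kidneys (log2 difference 3.46 ± 0.36, adjusted p = 4.44e-05). Every tumour lay above every kidney in all 3. Serpina3n, an acute phase protease inhibitor, was read at 493, 252 and 536 units in the tumours and 29.4, 4.02, 6.51, 10.2 and 5.06 in the kidneys (log2 difference 5.42 ± 0.60, adjusted p = 6.37e-05). Ftcd, which degrades histidine, was read at 3640.3, 3173 and 2157 units in the tumours and 474, 297, 269, 269 and 133 in the kidneys (log2 difference 3.45 ± 0.36, adjusted p = 4.48e-05), again without overlap.

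Uox, urate oxidase, was at 0 in all kidneys and at 584, 190.5 and 51.4 units in the tumours, at least 61.8-fold higher. Orm1, the acute phase protein orosomucoid, was at 0 in all kidneys and at 77.2, 21.3 and 202 units in the tumours, at least 22.5-fold higher. Apoa1, an apolipoprotein, had a log2 difference of 2.85 (adjusted p = 0.00711). Other genes of that tissue went the other way or stayed at the floor. Alb (albumin) was read at 0, 1.25 and 45.9 units in the tumours and 196, 224, 147, 200 and 674 in the kidneys (log2 difference −5.70 ± 1.09, adjusted p = 0.00165), and Ttr fell as given above. Ahsg (fetuin A), with 0, 1.25 and 1.84 units, and Foxa2, with 0 in every tumour, were at or below the floor in both groups. In VIM-3039 cells on Dox all 3 fibrinogen genes and Serpina3n were at 0 in the 4 libraries. The source of these transcripts was not tested.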
